A study of Mus musculus with 24 samples.

Results

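The repeat annotation used with these RNA-seq tables holds, beside transposons, copies of the cell's small non-coding RNAs: tRNAs, Y RNAs, the 7SL RNA of the signal recognition particle, 7SK RNA, the U RNAs of splicing and ribosomal RNA processing, and the SINE-like BC1 and 4.5S RNAs. The repeat rows of class tRNA, scRNA, snRNA, srpRNA and RNA form 80 families out of 1562, with 17236 loci out of 5147736. The tRNA class has 60 families and 4769 loci, scRNA 6 and 8332, snRNA 12 and 3007, srpRNA 1 and 437, and RNA 1 and 691. A family value is the mean FPKM (fragments per kilobase of feature, scaled to the library's total) over all its loci, with loci at 0 included. All 57 families with at least 10 loci could be tested, and the other 23 are described by their values only. Classes and family names are those of the annotation, and expression had no part in the choice.

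The 24 libraries are total RNA of mouse embryonic stem cells (ESCs) in 12 groups of 2, in 6 tables that were each normalized separately. High and Low are E14 naive ESCs sorted by TMRM dye for the top and bottom 5% of mitochondrial membrane potential, and Low is the fraction that the study calls spontaneously quiescent. LowSAM25uM and LowSAM50uM are low-potential cells given 25 or 50 µM S-adenosylmethionine (SAM), and their table holds no untreated group. siCtr and siMat2a carry a non-targeting or a Mat2a siRNA pool (Mat2a makes SAM), so their partial knockdown is that of a transfected population. H2O and ETO received water or etomoxir, an inhibitor of fatty acid oxidation (FAOi), for 4 days, and DMSO and MYCi received solvent or a MYC inhibitor for 3 days. All of these were E14 cells in 2i/LIF on Geltrex. Het and EedKO are Eed heterozygous and Eed-null ESC lines, derived from blastocysts of a cross with Protamine-Cre fathers, on mouse embryonic fibroblast feeders in 2i/LIF with added serum, so that each contrast of genotypes is also one of separate lines. The 2 libraries of a group are biological replicates by the study's statement, without a record of shared cultures. The p-values cover the spread between these libraries, pooled by the fit (limma) over families or genes of like level. They do not rest on the spread of the named family or gene alone.

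Most of these RNAs are made by RNA polymerase III: tRNAs and BC1 from promoters inside the gene, Y RNAs, 7SK and U6 from promoters upstream of it, and all end in a run of T in the DNA. U1, U2, U4, U5 and U7 are instead made by RNA polymerase II and trimmed by the Integrator complex. Output of polymerase III is known to follow growth signals, with MYC among its activators and Maf1 as its repressor. Copies of these RNAs were pasted through the genome by LINE machinery, so most annotated loci are fragments and not genes.

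A set of 3 mouse small RNA genes shows what HY1, HY3 and U1, families that fell with etomoxir, are copies of. Each is given in DNA letters from the GENCODE vM21 transcripts of GRCm38. In the Y RNAs the capitals mark the run of T at the 3′ end, where polymerase III stops. In U1 they mark the stretch that pairs with the 5′ splice site and the binding site of the Sm proteins. Rny1 lies at chr6:47788069-47788180, minus strand, Rny3 at chr6:47781624-47781725, plus strand, and Rnu1a1 at chr11:87422867-87423030, plus strand. Each is a gene of a single exon without introns.
Rny1: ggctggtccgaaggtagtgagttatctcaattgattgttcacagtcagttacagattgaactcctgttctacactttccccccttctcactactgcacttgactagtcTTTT
Rny3: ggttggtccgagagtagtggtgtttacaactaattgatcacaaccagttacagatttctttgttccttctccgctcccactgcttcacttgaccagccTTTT
Rnu1a1: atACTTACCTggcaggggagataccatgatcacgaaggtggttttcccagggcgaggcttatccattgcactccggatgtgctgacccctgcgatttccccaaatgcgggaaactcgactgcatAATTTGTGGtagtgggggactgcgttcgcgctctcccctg

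How a family's value is spread over its loci differed widely. In HY1 and HY3 a single locus held 74.5% and 71.1% of the family's summed FPKM over the 24 libraries, and the HY1 locus, at 19.2 and 31.9 FPKM in H2O and 3.08 and 3.02 in ETO, lay close to the Ensembl gene Rny1 printed above, at 19.0 and 31.6 and 3.05 and 3.0. A pair of loci at 44.8% and 44.7% carried 7SLRNA, 3 loci carried 97.2% of 7SK, and 4 loci with 20.3% to 20.7% each carried most of U3. Copies this alike receive split fragments from the authors' counting, so values of single copies in these families are uncertain. The tRNA class is different in kind: 4769 repeat loci stand against 402 tRNA genes in RefSeq (median gene length 72 bases), and alanine alone has 3535 loci against 33 genes. Fragments of these paired-end libraries are longer than a mature tRNA and can belong to a longer transcript that runs across a locus, which the unstranded values do not separate.

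**Figure D1:**
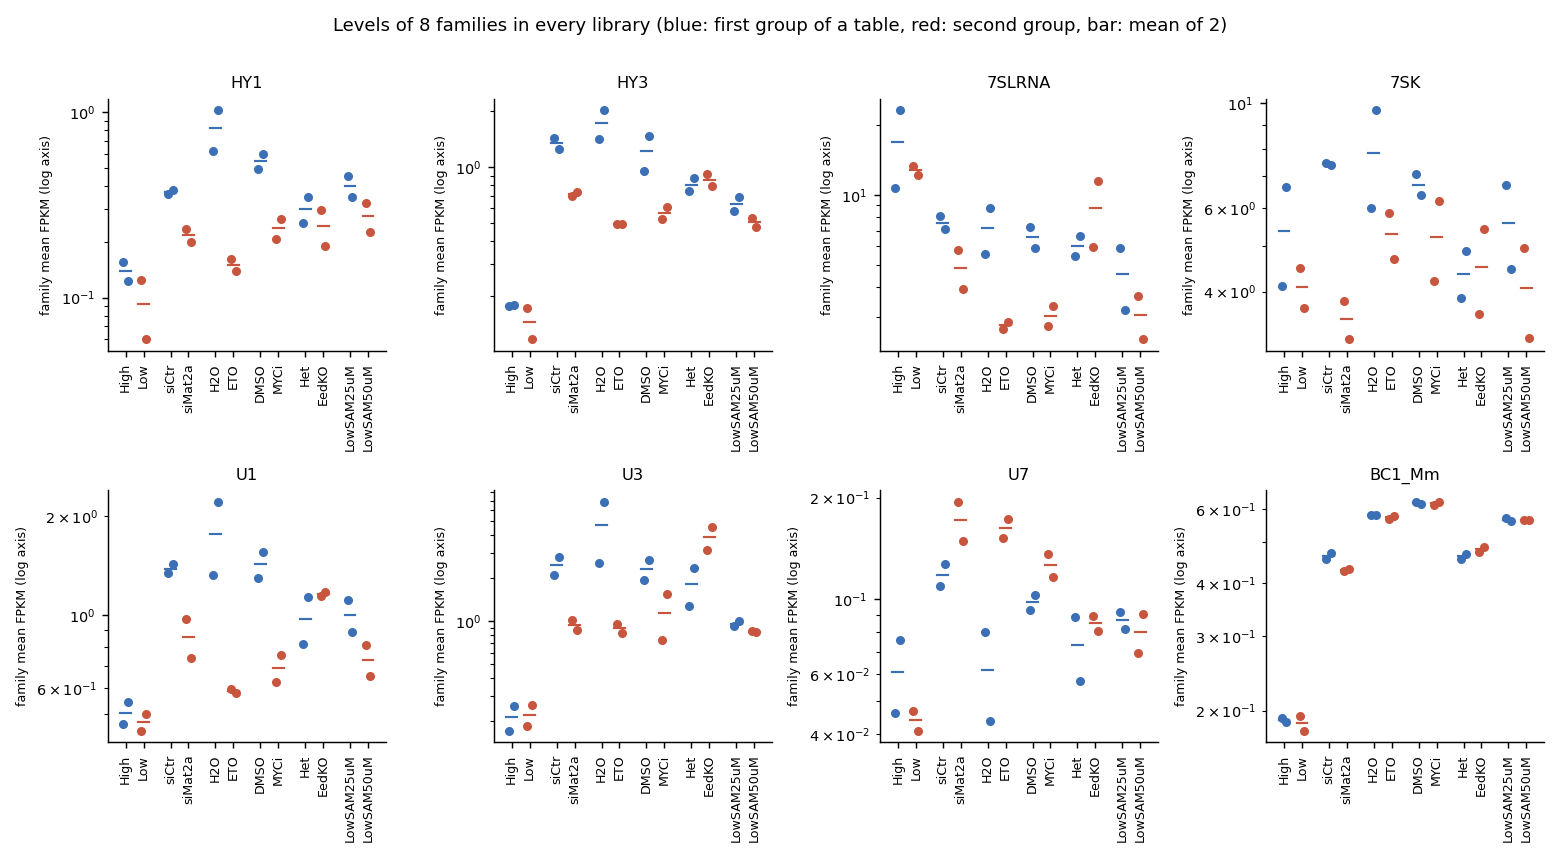
Family mean FPKM (log axis) in each of the 24 libraries for HY1, HY3, 7SLRNA, 7SK, U1, U3, U7 and BC1_Mm, with the first group of each table in blue, the second in red and a bar at the group mean. HY1, HY3, 7SLRNA, U1 and U3 lie lower in both ETO libraries than in both H2O libraries, U7 lies higher, and BC1_Mm lies at 0.568 to 0.582 in all 4.

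The tables are scaled to all mapped features, and in 4 of them the median gene lies lower in the second group, so differences that the account turns on in siMat2a, ETO and MYCi are also given relative to genes. On the deposited scale the median Ensembl gene differed by -0.63 (log2) in siMat2a, -0.66 in ETO, -0.65 in MYCi and -0.40 in LowSAM50uM against LowSAM25uM, but by 0.04 in Low and 0.11 in EedKO. Values scaled to genes divide each library by 1 factor that brings the median gene level, and so state a change relative to genes. Depth, read from the commonest step between low values (a factor of 2 was not settled), was 35300000 to 90700000 fragments. In every table but the sorted one both libraries of the second group were the deeper ones. Depth was 48100000 and 35300000 in H2O and 66500000 and 74600000 in ETO, and 36900000 and 46000000 in DMSO and 76300000 and 71200000 in MYCi. It was 44400000 and 43400000 in siCtr and 63500000 and 87600000 in siMat2a, and 59200000 and 59200000 in Het and 64900000 and 90700000 in EedKO. The SAM table had 46000000 and 57900000 in LowSAM25uM and 59200000 and 78100000 in LowSAM50uM. The part of depth in the results was not tested. One fragment on a tRNA length is worth 0.153 to 0.394 FPKM. Mat2a was 48.5 and 45.1 FPKM in siCtr and 13.5 and 9.44 in siMat2a, and Eed 11.4 and 11.6 in Het and 2.72 and 2.78 in EedKO, as their labels say. All 10 naive ESC markers were at 0.1 FPKM or more in every library, but their sum was lower in 3 treated groups, at 1262 and 1791 FPKM in H2O and 498 and 461 in ETO, 1483 and 1311 in DMSO and 532 and 629 in MYCi, and 1487 and 1396 in siCtr and 764 and 477 in siMat2a. Their part in the results was not tested. The 8 fibroblast markers summed to 7.34 and 8.70 FPKM in Het, 3.98 and 4.77 in EedKO and 0.24 to 2.01 elsewhere, with 0 to 3 of the 8 at 0 in a library.

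The main test asked, within each table, which families differed by an adjusted p under 0.05 among all repeat families. Differences are log2 changes of the family mean with 0.01 FPKM added, for 2 libraries against 2. They are given ± the SE of the fit, which uses the pooled spread. In FAOi cells 2 of 57 families rose (3.51%, against 7.38% of all repeat families) and 11 fell (19.3%, against 10%). The fallers were HY1, HY3, 7SLRNA, U1, U3, U5, U17 and 4 tRNA families, of which U5 and 2 of the tRNA families changed sign relative to genes. In MYCi cells 4 rose (7.02% against 31.6%) and 8 fell, a share of 14% that equals the 14% of all families. In Mat2a-depleted cells 3 rose (5.26% against 8.9%) and 4 fell (7.02% against 2.21%). In Eed-null cells 1 rose (1.75% against 4.55%) and 3 fell (5.26% against 2.62%). In bulk RNA, fewer cells of a type and less RNA per cell cannot be told apart.

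None of the 57 families passed in Low against High, where 0.361% of all families were called higher and 0.216% lower by limma, and 5 of the 57 had an unadjusted p under 0.05. None passed between the SAM doses either, with 0% of all families called by limma, and 6 of 57 at an unadjusted p under 0.05. The median difference of the 57 families was -0.12 in Low (all families -0.01), -0.08 in siMat2a (0.11), -0.24 in ETO (0.09), -0.27 in MYCi (0.13), -0.03 in EedKO (0.06) and -0.11 in LowSAM50uM (0.01).

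Relative to genes the balance turned, and most calls were rises. Scaled to genes, 30 families were higher and 6 lower in ETO (all families 80.3% and 3.04%), 37 and 5 in MYCi (88% and 2.7%), and 31 and 3 in siMat2a (64.3% and 1.1%). The rises relative to genes are thus fewer than among all families, and the falls more. EedKO had 1 higher and 4 lower (3.38% and 2.69%), Low none (limma, 0.289% and 0.505%; unadjusted p under 0.05 in 7 of 57), and LowSAM50uM none (limma, 0.415%; 6 of 57). Of the calls on the deposited scale, 8 of 13 in ETO, 7 of 12 in MYCi, 5 of 7 in siMat2a and 4 of 4 in EedKO were also called in the same direction relative to genes. These counts rest on all 4 libraries of a table, and a fit without 1 library leaves a lone library in a group. In MYCi and EedKO every such fit lost the calls of all repeat families, and not only those of the 57. In ETO and siMat2a some of these fits did so too. In Low against High the counts of the 57 and of all families moved as well. With each library instead scaled to the repeat families, none of the 57 was called in ETO or siMat2a. Hardly any repeat family was on that scale (0 higher and 0 lower of 1449 in ETO, and 2 and 0 of 1449 in siMat2a). In MYCi 11 of the 57 were called (all families 149 higher and 253 lower of 1444), and in EedKO 4 (73 and 68 of 1451).

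Families whose 2 libraries lay on one side of both control libraries can be counted without a test. In ETO 29 families lay lower and 9 higher (all families in either direction 73.8%), in MYCi 26 and 10 (78.1%), and in siMat2a 24 and 10 (75.1%). EedKO had 15 lower and 10 higher (61.6%), Low 15 and 1 (47.4%), and LowSAM50uM 16 and 6 (35.3%).

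**Figure D2:**
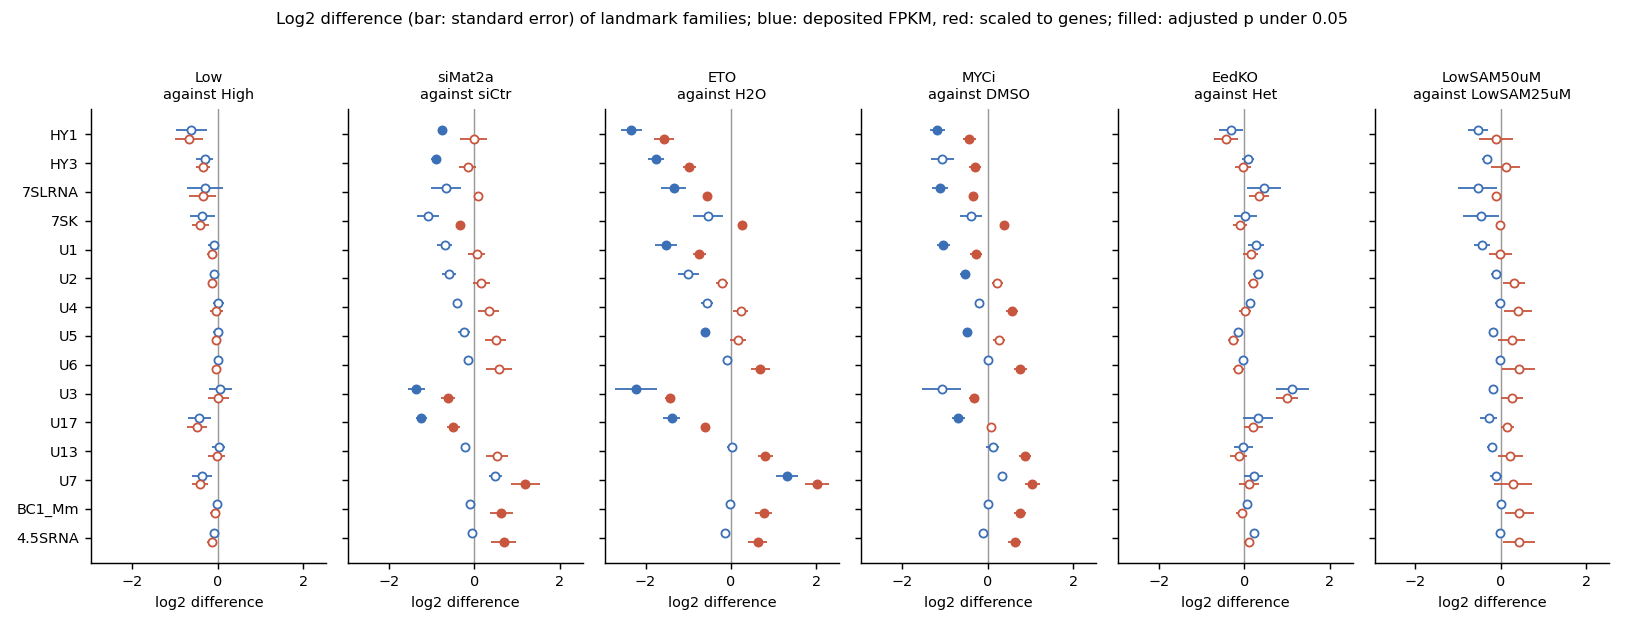
Difference (log2 ± SE) of 15 tested small RNA families in each of the 6 comparisons, as deposited (blue) and scaled to genes (red), with filled points at an adjusted p under 0.05. HY1 in ETO lies at -2.33 as deposited and at -1.57 relative to genes, while BC1_Mm in ETO moves from -0.02 to 0.76 between the scales.

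The Y RNAs, short partners of the Ro60 protein in RNA quality control and in the start of DNA replication, include HY1, which fell in 3 tables. HY1 was 0.621 and 1.03 FPKM in H2O and 0.161 and 0.140 in ETO, 0.497 and 0.597 in DMSO and 0.208 and 0.267 in MYCi, and 0.361 and 0.380 in siCtr and 0.235 and 0.199 in siMat2a. The groups did not overlap in any of these tables. HY1 fell by 2.33 on the log2 scale in ETO (SE 0.25, adjusted p = 0.0227), by 1.17 in MYCi (SE 0.17, adjusted p = 0.0209) and by 0.75 in siMat2a (SE 0.10, adjusted p = 0.0462). Relative to genes the falls in ETO (-1.57, adjusted p = 5.63e-10) and MYCi (-0.43, 0.00759) passed, and siMat2a was at -0.02 (adjusted p = 0.949).

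HY3 behaved alike in ETO, with 1.42 and 2.03 FPKM in H2O and 0.490 and 0.495 in ETO, a fall of 1.76 (SE 0.19, adjusted p = 0.0227), or -0.98 relative to genes. In Mat2a-depleted cells it fell from 1.44 and 1.25 to 0.696 and 0.736 (-0.90 ± 0.12, adjusted p = 0.0450), but relative to genes it stood at -0.15 (adjusted p = 0.475). In MYCi it was 0.956 and 1.48 in DMSO and 0.525 and 0.609 in MYCi, just outside the threshold at -1.06 ± 0.26 (adjusted p = 0.0505), and called relative to genes at -0.30 (adjusted p = 0.0321). HY3 was 0.176 and 0.181 in High and 0.173 and 0.117 in Low, 0.739 and 0.868 in Het and 0.919 and 0.788 in EedKO, and neither contrast passed. HY1 was 0.155 and 0.124 in High and 0.125 and 0.0597 in Low (-0.62 ± 0.37, -0.66 relative to genes, adjusted p = 0.556). Both Y families were thus lowest in the sorted table, whose values are not on a common scale with the others.

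These falls sat in the 1 locus of each family that carries most of it. The highest HY1 locus was 19.2 and 31.9 FPKM in H2O and 3.08 and 3.02 in ETO, 14.8 and 18.9 in DMSO and 5.12 and 6.11 in MYCi, and 11.5 and 12.3 in siCtr and 5.09 and 3.87 in siMat2a. Without its highest locus HY1 was at -0.98 in ETO (adjusted p = 0.0779), -0.21 in MYCi (adjusted p = 0.445) and 0.71 in siMat2a, where the remaining copies rose (adjusted p = 0.0430). HY3 without its highest locus was at 0.08 in ETO, -0.26 in MYCi and 0.64 in siMat2a. The other repeats nearest to the highest HY1 locus in annotation number (within 10, at a mean of at least 0.01 FPKM) moved the opposite way in siMat2a, where 18 of 18 had a higher group mean, and so did 12 of 13 around the highest HY3 locus. In ETO those neighbours had 8 higher and 8 lower around HY1 and 4 higher and 7 lower around HY3, and in MYCi 6 and 6 and 4 and 5. HY4, with 3 loci, was 2.96 and 2.32 in H2O and 2.92 and 3.49 in ETO, and HY5, with 1 locus, was listed at 0 in all but 2 libraries.

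7SLRNA, the RNA scaffold of the particle that brings ribosomes making secreted proteins to the endoplasmic reticulum, fell in FAOi and MYCi cells. It was 5.58 and 8.77 FPKM in H2O and 2.65 and 2.84 in ETO (-1.35 ± 0.30, adjusted p = 0.0457), and 7.24 and 5.92 in DMSO and 2.74 and 3.32 in MYCi (-1.12 ± 0.18, adjusted p = 0.0235). Relative to genes it still fell, by 0.55 in ETO and by 0.35 in MYCi (limma, adjusted p = 4.20e-19 and 2.22e-05). These p-values rest on the pooled spread and not on the 4 libraries of this family alone. Mat2a depletion gave 8.07 and 7.13 in siCtr and 5.80 and 3.93 in siMat2a, which did not pass (-0.67 ± 0.35, adjusted p = 0.218). In High it was 10.7 and 23.0 and in Low 13.3 and 12.1, so the second High library stood far above the other 3. In the Eed lines it was 5.44 and 6.66 in Het and 5.96 and 11.5 in EedKO, with the groups overlapping.

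7SK, which holds the elongation factor P-TEFb inactive together with Larp7, Mepce and Hexim proteins, passed in no comparison on the deposited scale. It was 7.49 and 7.39 FPKM in siCtr and 3.83 and 3.17 in siMat2a (-1.09 ± 0.26, adjusted p = 0.0653). It was 6.01 and 9.65 in H2O and 5.87 and 4.69 in ETO (-0.54 ± 0.36, adjusted p = 0.302), and 7.07 and 6.39 in DMSO and 4.22 and 6.22 in MYCi (-0.39 ± 0.25, adjusted p = 0.280). Relative to genes it was called in all 3, lower in siMat2a at -0.34 and, with the sign turned, higher in ETO at 0.26 and in MYCi at 0.38. On that scale 7SK had the opposite sign to 7SLRNA and the Y RNAs in ETO and MYCi. The median of all families there was 0.83 in ETO and 0.85 in MYCi, so 7SK too lay below the median family. In ETO the scaled 7SK values of the groups overlapped.

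Among the spliceosomal families U1, which recognises the 5′ splice site, had the largest difference on the deposited scale in ETO and in MYCi. U1 was 1.32 and 2.20 FPKM in H2O and 0.596 and 0.578 in ETO (-1.52 ± 0.26, adjusted p = 0.0333), and 1.30 and 1.55 in DMSO and 0.626 and 0.756 in MYCi (-1.03 ± 0.15, adjusted p = 0.0206). Both falls remained called relative to genes, at -0.74 and -0.27 (adjusted p = 7.77e-06 and 0.0409). In siMat2a U1 was 0.972 and 0.742 against 1.34 and 1.42 in siCtr and did not pass (-0.69 ± 0.17, adjusted p = 0.0684), and relative to genes it stood at 0.05.

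U5, which holds the exon ends together, fell in ETO (0.757 and 0.821 to 0.505 and 0.516, -0.62 ± 0.09, adjusted p = 0.0283) and in MYCi (0.838 and 0.869 to 0.595 and 0.615, -0.49 ± 0.04, adjusted p = 0.0189), but relative to genes its sign turned to 0.17 and 0.27. U2, which pairs with the branch point, fell in MYCi from 1.24 and 1.39 to 0.840 and 0.969 (-0.54 ± 0.11, adjusted p = 0.0341), with the sign turned to 0.23 relative to genes. In ETO U2 was 1.29 and 2.12 in H2O and 0.815 and 0.831 in ETO (adjusted p = 0.0566). U4 was at -0.56 in ETO and -0.19 in MYCi (adjusted p = 0.0566 and 0.0807), with both signs turned relative to genes, to 0.23 and 0.57. U6, whose 1353 loci are mostly scattered copies of a polymerase III gene, was at -0.09 in ETO and 0.01 in MYCi, and at 0.69 and 0.76 relative to genes. None of the 5 spliceosomal families passed in Low, EedKO, siMat2a or LowSAM50uM on the deposited scale by limma, where their differences ran from -0.09 to 0.02 in Low, -0.15 to 0.32 in EedKO and -0.69 to -0.15 in siMat2a.

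The nucleolar U RNAs U3 and U17, both needed to cut the 18S ribosomal RNA precursor, fell in FAOi and in Mat2a-depleted cells. U3 was 2.57 and 6.85 FPKM in H2O and 0.956 and 0.828 in ETO (-2.22 ± 0.48, adjusted p = 0.0437), and 2.11 and 2.81 in siCtr and 1.03 and 0.870 in siMat2a (-1.36 ± 0.21, adjusted p = 0.0464). The second H2O library was far above the first, but both lay above both ETO libraries. U17 was 2.49 and 3.42 in H2O and 1.11 and 1.11 in ETO (-1.39 ± 0.19, adjusted p = 0.0275), and 2.68 and 2.76 in siCtr and 1.2 and 1.09 in siMat2a (-1.24 ± 0.13, adjusted p = 0.0441). Relative to genes all 4 falls kept their sign and were called, between -1.43 for U3 in ETO and -0.49 for U17 in siMat2a.

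In MYCi cells U17 fell from 2.63 and 2.68 to 1.44 and 1.88 (-0.68 ± 0.16, adjusted p = 0.0444), with the sign turned to 0.08 relative to genes. U3 was 1.95 and 2.67 in DMSO and 0.743 and 1.55 in MYCi and did not pass on the deposited scale (-1.08 ± 0.45, adjusted p = 0.141). Relative to genes U3 was called lower there, at -0.32. Eed-null cells stood the other way for U3, with 1.28 and 2.36 in Het and 3.15 and 4.57 in EedKO, both above both controls, at 1.12 ± 0.39 and an adjusted p of 0.182. U13, which guides acetylation of 18S ribosomal RNA, was at 0.02 in ETO (0.802 and 0.704 in H2O and 0.712 and 0.809 in ETO). U14 has 4 loci and was outside the filter, at 15.1 and 15.6 in DMSO and 9.47 and 9.78 in MYCi, and 11.9 and 13.3 in H2O and 8.67 and 9.23 in ETO.

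U7, the RNA that directs the 3′ end cut of histone mRNAs, was the only one of these landmark families to rise on the deposited scale. It was 0.0798 and 0.0436 FPKM in H2O and 0.152 and 0.173 in ETO, and rose by 1.31 ± 0.26 (adjusted p = 0.0379), or 2.0 relative to genes. Its highest locus, whose values equal those of the Ensembl gene Rnu7 in these libraries, was 1.33 and 0.458 in H2O and 0.908 and 0.703 in ETO, so the 2 groups overlapped there. Without that locus the family stood at 1.55 (adjusted p = 0.135). The Rnu7 locus, a gene looked up after the U7 values were seen, was instead 1.73 and 2.05 in siCtr and 6.25 and 3.09 in siMat2a, and as a gene it rose there by 1.18 ± 0.37 (adjusted p = 0.00623), while the family was at 0.49 (adjusted p = 0.0990). The RNA of this gene (GENCODE vM21 on GRCm38, chr6:124741225-124741286, minus strand), with the Sm-type site that sets U7 apart from the splicing RNAs in capitals, is the following.
Rnu7: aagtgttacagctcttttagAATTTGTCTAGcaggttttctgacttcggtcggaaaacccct

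The families with many scattered copies differed little on the deposited scale. BC1_Mm, 6758 copies related to the neuronal BC1 RNA, was 0.582 and 0.581 FPKM in H2O and 0.568 and 0.579 in ETO, 0.624 and 0.615 in DMSO and 0.614 and 0.624 in MYCi, and 0.458 and 0.473 in siCtr and 0.428 and 0.434 in siMat2a. 4.5SRNA, with 1517 copies of a rodent polymerase III RNA, was at -0.15 in ETO, -0.11 in MYCi and -0.05 in siMat2a. None of these values passed, and relative to genes the same rows were called higher with the sign turned, BC1_Mm at 0.76, 0.76 and 0.63 and 4.5SRNA at 0.63, 0.64 and 0.69 in ETO, MYCi and siMat2a. The highest BC1_Mm locus did not follow its family: it was 71.6 and 101 in H2O and 40.7 and 30.4 in ETO.

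The differences by number of loci are given as values, since ranges over groups of unequal size cannot be compared. Among the 48 families under 300 loci the differences in ETO ran from -2.33 to 1.31, with 2 called higher and 9 lower. Among the 9 with at least 300 loci they ran from -1.52 to 0.02, with 2 called lower. In MYCi the lowest values were -1.17 and -1.12. In siMat2a all 7 calls were in families under 300 loci, while in MYCi 3 of the 8 falls were in the larger families.

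**Figure D3:**
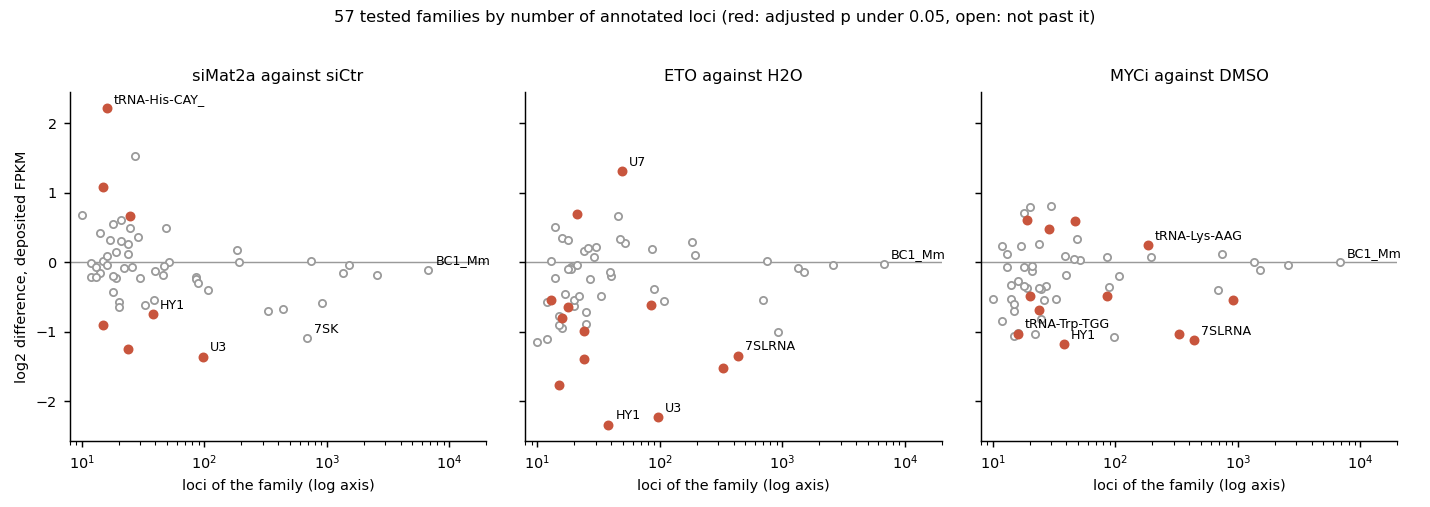
Difference (log2, deposited scale) of the 57 tested families against their number of loci (log axis) in siMat2a, ETO and MYCi, with families at an adjusted p under 0.05 in red. BC1_Mm, with 6758 loci, lies at -0.02 in ETO, while HY1 with 38 loci lies at -2.33 in ETO and tRNA-His-CAY_ with 16 at 2.22 in siMat2a.

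Of the 41 tested tRNA families, the adaptors that carry amino acids to the ribosome, few passed on the deposited scale. The calls were 3 higher and 0 lower in siMat2a (7.32% and 0%, against 8.9% and 2.21% of all families), 1 higher and 4 lower in ETO (2.44% and 9.76%, against 7.38% and 10% of all families), 4 higher and 2 lower in MYCi (9.76% and 4.88%, against 31.6% and 14% of all families) and 1 higher and 3 lower in EedKO (2.44% and 7.32%, against 4.55% and 2.62% of all families). The falls in ETO and the rises in siMat2a were thus near the share of all families. Their median differences were -0.01, -0.20, -0.13 and -0.25. Relative to genes the calls turned to 27 higher and 0 lower in siMat2a, 23 higher and 0 lower in ETO and 29 higher and 0 lower in MYCi (65.9%, 56.1% and 70.7% higher, against 64.3%, 80.3% and 88% of all families), while EedKO had 1 higher and 4 lower. In Low 32 of 41 had a lower value (median -0.25) and none passed by limma on either scale.

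tRNA-Trp-TGG, for tryptophan, fell in 3 tables. It was 0.494 and 0.590 FPKM in H2O and 0.273 and 0.341 in ETO (-0.80 ± 0.15, adjusted p = 0.0347), 0.631 and 0.540 in DMSO and 0.278 and 0.287 in MYCi (-1.02 ± 0.09, adjusted p = 0.0189), and 0.673 and 0.660 in Het and 0.398 and 0.426 in EedKO (-0.68 ± 0.06, adjusted p = 0.0303). Relative to genes only the EedKO fall was called, at -0.79, against -0.03 in ETO and -0.27 in MYCi. tRNA-Gly-GGG, a glycine family, fell in ETO from 0.385 and 0.427 to 0.217 and 0.184 (-0.99 ± 0.11, adjusted p = 0.0241; -0.22 relative to genes, not called) and in EedKO from 0.468 and 0.580 to 0.258 and 0.283 (-0.92 ± 0.13, adjusted p = 0.0463; -1.04 relative to genes).

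The other falls in FAOi cells were tRNA-Val-GTY, from 0.318 and 0.241 to 0.166 and 0.183 (-0.64 ± 0.15, adjusted p = 0.0496), with the sign turned to 0.12 relative to genes, and tRNA-Val-GTA at -0.54 ± 0.11 (adjusted p = 0.0385), which turned to 0.23 relative to genes and is named after its value was seen. tRNA-Arg-CGY_, an arginine family, rose in ETO from 0.286 and 0.336 to 0.543 and 0.470 (0.69 ± 0.12, adjusted p = 0.0337). In MYCi cells tRNA-Tyr-TAC fell from 0.433 and 0.377 to 0.275 and 0.30 (-0.48 ± 0.09, adjusted p = 0.0335), with the sign turned to 0.27 relative to genes.

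A group of 4 tRNA families rose with MYC inhibition on both scales. Rises were common in that table, where 31.6% of all repeat families were called higher as deposited and 88% relative to genes. With libraries scaled to the repeat families, 1 of the 41 tRNA families was called higher (all families 149 of 1444). tRNA-Phe-TTY was 0.398 and 0.438 FPKM in DMSO and 0.627 and 0.649 in MYCi (0.60 ± 0.06, adjusted p = 0.0189). tRNA-Met-i, the initiator that starts every protein, was 0.350 and 0.294 and 0.451 and 0.538 (0.60 ± 0.14, adjusted p = 0.0451). tRNA-Pro-CCY rose by 0.48 ± 0.10 and tRNA-Lys-AAG, with 184 loci, by 0.25 ± 0.05 (adjusted p = 0.0357 and 0.0321). All 4 separated the groups, and relative to genes they lay between 0.99 and 1.35, against a median of 0.85 over all families. The repeats around their highest loci in annotation number were mostly higher too: 18 of 19 had a higher MYCi mean around tRNA-Pro-CCY (median 0.73, against 0.51 at the locus), 18 of 19 around tRNA-Lys-AAG (0.54 against 0.53), 13 of 18 around tRNA-Phe-TTY (0.42 against 0.95) and 15 of 20 around tRNA-Met-i (0.25 against 0.50). The part of these surroundings in the family values was not tested. The widest rises of that table, tRNA-Arg-AGA (0.126 and 0.270 and 0.297 and 0.369) and tRNA-Thr-ACG_ (0.225 and 0.462 and 0.561 and 0.571), did not pass (adjusted p = 0.214 and 0.196).

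Eed-null lines differed from Het in 4 tRNA families. Beside tRNA-Trp-TGG and tRNA-Gly-GGG, tRNA-Arg-AGG fell from 0.534 and 0.484 FPKM to 0.318 and 0.30 (-0.70 ± 0.08, adjusted p = 0.0367). tRNA-Thr-ACA, a threonine family, rose from 0.192 and 0.189 to 0.398 and 0.432 (1.08 ± 0.06, adjusted p = 0.0185). All 4 kept their call and sign relative to genes. The summed fibroblast markers given above also differed between these groups, with Col1a1 at 5.69 and 6.80 FPKM in Het and 0.650 and 0.681 in EedKO, and their part in these 4 values was not tested.

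The extremes of the sorted table were tRNA-Thr-ACY_, at 0.0878 and 0.0928 FPKM in High and 0 and 0.0427 in Low, and tRNA-Pro-CCA, at 0.171 and 0.108 and 0.0520 and 0.0327. Neither passed (-2.13 ± 0.88 and -1.51 ± 0.30, adjusted p = 0.408 and 0.173), and as means over 15 and 10 loci these values rest on few fragments. On the upper side stood tRNA-Leu-CTG at 0.42 and tRNA-Leu-TTA at 0.35. Between the SAM doses the extremes were tRNA-Pro-CCA at -0.86, 7SLRNA at -0.55, tRNA-Met-i at 0.40 and tRNA-Arg-AGG at 0.68, each with an adjusted p of 0.835.

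The largest rise of all belonged to a histidine family in Mat2a-depleted cells. tRNA-His-CAY_ was 1.05 and 1.04 FPKM in siCtr and 5.98 and 4.02 in siMat2a (2.22 ± 0.25, adjusted p = 0.0441; 2.97 relative to genes). tRNA-Thr-ACY_ rose from 0.230 and 0.293 to 0.611 and 0.520 (1.09 ± 0.16, adjusted p = 0.0464), and tRNA-Gln-CAG from 0.428 and 0.495 to 0.765 and 0.712 (0.67 ± 0.11, adjusted p = 0.0476). tRNA-Asn-AAC separated the groups too, at 0.702 and 1.06 and 3.09 and 2.02, but did not pass (1.52 ± 0.33, adjusted p = 0.0607).

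The histidine and asparagine values rested on 1 stretch of the annotation, picked out after its values were seen. It is a run of 21 consecutively numbered repeats in which U1, tRNA-Asn-AAC and tRNA-His-CAY_ copies stand in mirrored order around the middle, with transposons and simple repeats between them. The highest tRNA-His-CAY_ locus lies in it and was 2.11 and 3.18 FPKM in siCtr and 43.3 and 28.2 in siMat2a. Both siMat2a libraries were above both siCtr libraries in 18 of the 21 rows, and in 12 of the 15 that are not tRNA or U1 copies. These rows are not independent, since mirrored copies can share split fragments. The 2 copies of the transposon RMER12B, for example, were 20.7 and 7.47 FPKM and 19.6 and 7.56 FPKM in siMat2a. The 21 rows summed to 41.4 and 43.6 in siCtr and 429.8 and 238 in siMat2a. Of the 9 other rows within 5 numbers of the run, 5 showed the same order, at sums of 0.189 and 0.557 and 1.45 and 2.46. With the tRNA and U1 copies of the run left out, tRNA-His-CAY_ was at 0.33 (adjusted p = 0.147) and tRNA-Asn-AAC at -0.06, and siMat2a then had 2 families higher and 4 lower.

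**Figure D4:**
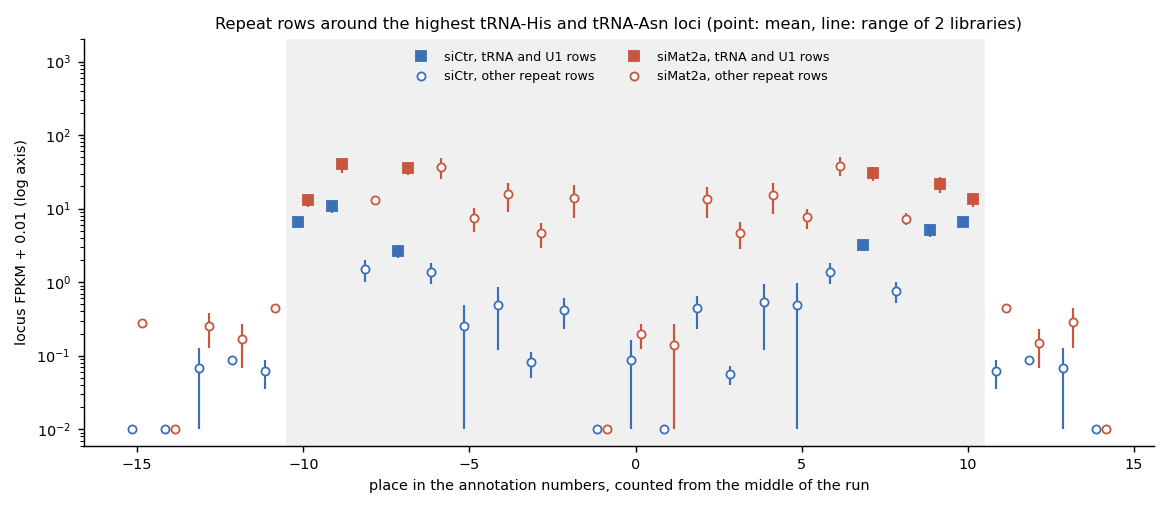
FPKM + 0.01 (log axis) of each repeat row by its place from the middle of the numbered run, in the 2 siCtr and 2 siMat2a libraries, with squares for tRNA and U1 rows, open circles for other repeats and a grey band over the 21 rows of the run. Within the band siMat2a lies above siCtr in 18 of 21 rows, transposon and simple repeat rows included, and values drop outside it.

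The highest FPKM of any family stood in 2 rows that the annotation names with an (m), a mark of the mitochondrial form of a tRNA. tRNA-Ser-TCA(m) has 5 loci and tRNA-Leu-TTA(m) 2, so neither entered the main test. tRNA-Ser-TCA(m) was 710.4 and 988 FPKM in H2O and 182 and 172 in ETO, and 672 and 747 in DMSO and 467 and 565 in MYCi. It was 234 and 314 in High and 342 and 307 in Low, which overlap, and 906 and 1091 in siCtr and 867 and 613 in siMat2a. tRNA-Leu-TTA(m) was 294 and 443 in H2O and 80.0 and 66.9 in ETO, 437 and 425 in DMSO and 195 and 213 in MYCi, and 140.1 and 208 in High and 93.0 and 86.8 in Low. The leucine row was 327 and 360.5 in siCtr and 200.1 and 137 in siMat2a, and the serine row 265 and 270.0 in Het and 358 and 353 in EedKO. The 2 treated libraries thus lay below both controls in ETO, MYCi and siMat2a for both rows and in Low for the leucine row, and above both in EedKO for the serine row.

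Their highest loci and that of tRNA-Gln-CAA_ carry consecutive annotation numbers, next to a ribosomal RNA fragment and an AT-rich stretch. The AT-rich row was 14204.5 and 21944 FPKM in H2O and 3133 and 3241 in ETO. It was 16847 and 16225 in DMSO and 8668 and 9884 in MYCi. The other repeats near the serine locus, chosen as for HY1, had 0 higher and 2 lower group means in ETO, MYCi and siMat2a. They had 1 and 1 in Low and 2 and 1 in EedKO. The part of these surroundings in the tRNA values was not tested. tRNA-Gln-CAA_ was 35.5 and 56.6 FPKM in H2O and 8.21 and 5.29 in ETO, and 48.1 and 48.5 in DMSO and 13.9 and 18.5 in MYCi. In a fit without the filter on locus number, tRNA-Gln-CAA_ was called in ETO (-2.76, adjusted p = 0.0455) and in MYCi (-1.59, 0.0221), and tRNA-Leu-TTA(m) in MYCi (-1.08, 0.0377) but not in ETO (-2.30, 0.0751). tRNA-Ser-TCA(m) was called in neither (-2.24, adjusted p = 0.125 in ETO; -0.46, 0.288 in MYCi). All 37 mitochondrial Ensembl genes are listed at 0 in every library, so the mitochondrial genes themselves give no value to set beside these rows. Whether the 3 loci lie in nuclear copies of mitochondrial DNA was not tested, as the repeat rows carry no coordinates.

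**Figure D5:**
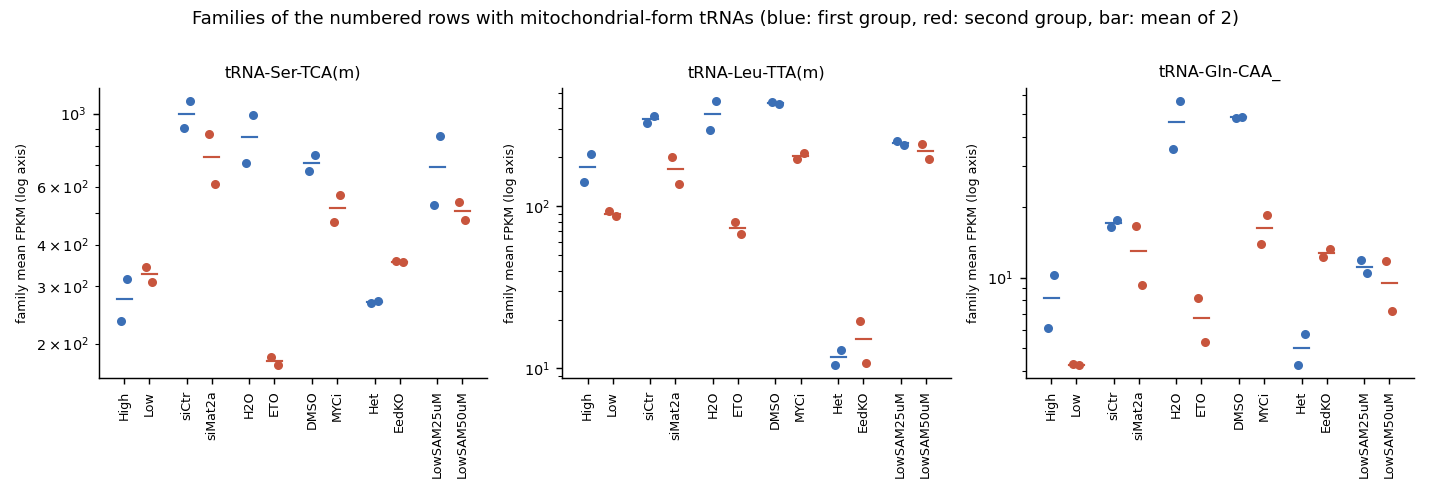
Family mean FPKM (log axis) of tRNA-Ser-TCA(m), tRNA-Leu-TTA(m) and tRNA-Gln-CAA_ in the 24 libraries, first group of each table in blue, second in red, bar at the group mean. Both ETO libraries lie below both H2O libraries in all 3 panels, and tRNA-Leu-TTA(m) is at 10.5 to 19.6 in the Eed table against 66.9 or more elsewhere.

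Among families outside the filter, tRNA-Glu-GAA (9 loci) was 6.63 and 5.11 FPKM in siCtr and 2.82 and 1.19 in siMat2a, 1.99 and 2.52 in H2O and 1.24 and 1.14 in ETO, so both treated groups lay lower. tRNA-Arg-CGA_ (2 loci) was 4.37 and 5.34 in H2O and 3.06 and 3.20 in ETO, 4.80 and 6.47 in DMSO and 3.25 and 3.42 in MYCi. tRNA-Glu-GAG (6 loci) was 2.59 and 3.50 in H2O and 3.29 and 3.35 in ETO, and tRNA-Ser-TCA_ (3 loci) 1.39 and 1.85 in Het and 0.683 and 0.820 in EedKO. Among tested families of high level, tRNA-Gly-GGY was 0.602 and 0.623 in H2O and 0.748 and 0.743 in ETO (0.28 ± 0.08, adjusted p = 0.0779), tRNA-Ala-GCY 0.886 and 1.91 and 0.591 and 0.611 (-1.10 ± 0.37, 0.0964), and tRNA-Ser-TCY 0.886 and 1.38 and 0.831 and 0.667 (-0.57 ± 0.25, 0.155).

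Genes that make, process and bind these RNAs were read from 9 lists with 157 genes, 156 of them tested. In FAOi cells 1 rose and 145 fell (all Ensembl genes 13.9% higher and 51.3% lower). In MYCi cells 0 rose and 154 fell (7.89% and 57.8%), in siMat2a 1 and 76 (13.1% and 36.8%), in EedKO 2 and 41 (24.2% and 12.1%), and in Low 6 and 9 (14% and 6.45%). No gene of the lists was called between the SAM doses by limma (all genes 0.882% in either direction; unadjusted p under 0.05 in 1 of 156). Relative to genes the counts higher and lower were 8 and 105 in ETO (all genes 30.9% and 31.2%), 5 and 116 in MYCi (25.4% and 28.4%), 14 and 45 in siMat2a (23% and 19.8%), 3 and 99 in EedKO (25.3% and 22.5%), 14 and 63 in Low (19.4% and 17%) and none between the SAM doses (0%). The count depends on single libraries in ETO (22 without ETO replicate 1, 19 without ETO replicate 2), in siMat2a (1 without siCtr replicate 1, 0 without siCtr replicate 2, 145 without siMat2a replicate 1 and 117 without siMat2a replicate 2), in Low (9 without High replicate 2, 4 without Low replicate 1, 6 without Low replicate 2) and in EedKO (4 to 34 without any 1 library).

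Of the 18 polymerase III subunits 16 fell in ETO and 18 in MYCi (all genes 51.3% and 57.8%). Relative to genes 14 and 12 were lower (all genes 31.2% and 28.4%) with 2 and 1 higher (30.9% and 25.4%). Polr3g, the subunit isoform of pluripotent cells, was 29.2 and 40.8 FPKM in H2O and 7.48 and 7.55 in ETO (-2.18 ± 0.30, adjusted p = 5.77e-12; -1.39 relative to genes), and 32.4 and 30.7 in DMSO and 8.83 and 10.3 in MYCi (-1.71 ± 0.16; -0.95 relative to genes). Its widely expressed paralog Polr3gl was lower by a smaller amount in ETO, at -1.29 ± 0.28 (-0.55 relative to genes). In Mat2a-depleted cells 6 subunits fell (33.3% against 36.8% of all genes, a share near the background), among them Polr3c from 24.8 and 25.4 to 9.11 and 6.20 (-1.73 ± 0.42, adjusted p = 0.000336; -0.98 relative to genes).

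In Low cells 1 subunit was higher and 1 lower (all genes 14% and 6.45%). Polr3d rose from 3.86 and 4.61 FPKM in High to 9.18 and 8.15 in Low (1.02 ± 0.15, adjusted p = 0.000524), and Polr2l, shared by the polymerases, fell by 0.54 ± 0.16. Gtf3c1, the largest subunit of the factor that binds tRNA promoters, rose from 11.0 and 11.9 to 20.2 and 19.2 (0.78 ± 0.14, adjusted p = 0.00238). Brf2, which serves the upstream promoters of U6, 7SK and Y RNAs, fell from 4.85 and 5.94 to 4.07 and 3.29 (-0.54 ± 0.16, adjusted p = 0.0331). Brf1, its counterpart for tRNA genes, was 2.40 and 2.38 and 2.24 and 2.03 and did not pass. The repressor Maf1 was 13.2 and 13.9 in High and 17.6 and 15.5 in Low, which did not pass either, and fell in ETO on the deposited scale by 0.90 ± 0.29 with -0.11 relative to genes.

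Of the 24 genes for tRNA processing and export, 21 fell in ETO, 22 in MYCi and 11 in siMat2a (all genes 51.3%, 57.8% and 36.8%). Relative to genes 13, 15 and 5 were lower (all genes 31.2%, 28.4% and 19.8%), so the 5 in siMat2a were near the share of all genes. Pop1, a protein of the RNase P and MRP enzymes that trim tRNA and ribosomal RNA precursors, was 26.7 and 34.6 FPKM in H2O and 5.27 and 5.49 in ETO (-2.48 ± 0.29, adjusted p = 1.85e-15; -1.69 relative to genes). It also fell in MYCi (-1.71 ± 0.15; -0.95 relative to genes), EedKO (-0.68 ± 0.11) and Low (-0.61 ± 0.15). Ssb, the La protein that binds the 3′ U run of polymerase III transcripts, was 63.3 and 90.8 in H2O and 28.1 and 28.4 in ETO (-1.42 ± 0.32; -0.63 relative to genes) and in Low it did not pass (42.1 and 48.4 and 50.3 and 44.8). Ang, a ribonuclease that cuts tRNAs, was the 1 gene of the list to rise in siMat2a, from 0.225 and 0.221 to 0.898 and 0.615 (1.39 ± 0.33; 1.97 relative to genes).

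The aminoacyl-tRNA synthetases followed, with 18 of 19 tested lower in ETO and 19 in MYCi, 12 in siMat2a, 6 in EedKO and 3 in Low. The shares of all genes were 51.3%, 57.8%, 36.8%, 12.1% and 6.45%. Relative to genes 15, 17, 7, 18 and 14 were lower (all genes 31.2%, 28.4%, 19.8%, 22.5% and 17%). Kars, the lysine enzyme, was 73.6 and 101 FPKM in H2O and 23.0 and 20.8 in ETO (-1.97 ± 0.32; -1.18 relative to genes). Nars, for asparagine, fell in Low from 45.8 and 53.4 to 35.2 and 30.8 (-0.58 ± 0.17, adjusted p = 0.0261). In siMat2a Qars, for glutamine, fell from 39.7 and 36.8 to 14.1 and 9.09 (-1.75 ± 0.43; -1.0 relative to genes).

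The protein partners of the U RNAs fell widely in ETO and MYCi, where 51.3% and 57.8% of all genes fell (31.2% and 28.4% relative to genes). All 28 spliceosomal proteins were lower in both on the deposited scale, and 21 and 23 relative to genes, with Snrpd1 at 8.24 and 12.3 FPKM in H2O and 2.38 and 2.26 in ETO (-2.07 ± 0.28; -1.30 relative to genes). Of the 24 genes for U RNA transcription and 3′ end processing, 23 were lower in ETO and 24 in MYCi (16 and 20 relative to genes), including the Integrator subunit Ints9 at -1.98 ± 0.28 in ETO (-1.21 relative to genes). In Low, Ints9 rose instead from 3.40 and 3.81 to 5.84 and 5.41 (0.63 ± 0.14, adjusted p = 0.00808) and so did Ints6. In EedKO 9 of the 24 fell (all genes 12.1%), among them the elongation factor Ell2 from 13.1 and 13.5 to 6.50 and 5.89 (-1.09 ± 0.10, adjusted p = 0.00276).

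The 7SK particle genes were lower in 6 of 7 cases in ETO and 7 of 7 in MYCi (all genes 51.3% and 57.8%). Relative to genes 4 of 7 were lower in each (all genes 31.2% and 28.4%). Larp7 was 29.3 and 41.4 FPKM in H2O and 11.1 and 10.3 in ETO (-1.69 ± 0.30; -0.90 relative to genes). Hexim1, the P-TEFb inhibitor, rose in Low from 11.3 and 12.7 to 17.6 and 16.9 (0.52 ± 0.15, adjusted p = 0.0238), and in ETO it was 3.44 and 5.33 and 3.11 and 2.84 without passing. The 10 signal recognition particle genes all fell in ETO and in MYCi on the deposited scale, with 2 and 9 lower relative to genes (20% and 90%, against 31.2% and 28.4% of all genes), and none passed in Low. The list for Y RNA binding has 8 genes, of which all fell in ETO and in MYCi (7 and 6 relative to genes), but it holds Zbp1, a sensor of Z-form nucleic acids whose symbol is an older name of the Y RNA binder Igf2bp1 and which is not itself counted as one. Zbp1 rose in EedKO from 0.185 and 0.295 to 1.16 and 1.26 (1.96 ± 0.22, adjusted p = 0.00435) and in Low from 0.137 and 0.144 to 0.392 and 0.397 (1.04 ± 0.20, adjusted p = 0.00298).

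The Ensembl annotation holds 26 small RNA genes of the same kinds, 24 to 26 of them tested in a table, which share fragments with the repeat rows and are not independent of them. Of these 23 fell in ETO and 19 in MYCi (all genes 51.3% and 57.8%). Relative to genes 14 and 8 were lower (all genes 31.2% and 28.4%), so the 8 in MYCi were near the share of all genes. Rny1 was 19.0 and 31.6 FPKM in H2O and 3.05 and 3.0 in ETO (-2.98 ± 0.29; -2.20 relative to genes), and in the sorted cells 5.46 and 3.93 in High and 2.09 and 0.635 in Low (-1.90 ± 0.37, adjusted p = 0.00312), where the HY1 family did not pass. Terc, the telomerase RNA, fell in Low from 22.1 and 34.0 to 17.1 and 14.8 (-0.78 ± 0.20, adjusted p = 0.0152). Rmrp, the RNA of the MRP enzyme, was 83.5 and 129 in H2O and 48.3 and 36.2 in ETO (-1.31 ± 0.33; -0.51 relative to genes), and Rpph1, the RNA of RNase P, 8.34 and 15.2 and 5.05 and 2.97 (-1.51 ± 0.29; -0.73 relative to genes). In EedKO the minor spliceosomal Rnu11 fell from 2.09 and 2.05 to 0.422 and 0.579 (-1.87 ± 0.19, adjusted p = 0.00340).

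Whether the induced states differ from sorted Low cells was tested as a difference of differences over all 24 libraries (no control library is shared). Etomoxir differed from Low in 10 of 57 families, 3 more and 7 less positive (all families in either direction 31.1%), MYC inhibition in 4 (28.3%), Mat2a depletion in 6 (30.1%), and Eed loss in none by limma (10.9%; 2 of 57 at an unadjusted p under 0.05). The 2 inhibitors differed from each other in none by limma (0.145%; 6 of 57 at an unadjusted p under 0.05). The HY1 difference was -1.72 ± 0.45 (log2, etomoxir minus Low), HY3 -1.46 ± 0.30, U1 -1.43 ± 0.32 and U3 -2.28 ± 0.61, while U7 was 1.68 ± 0.35. Shares of the 57 that passed lay below those of all families in each of these contrasts. Relative to genes, 80.3% of all families were called higher in ETO itself, 88% in MYCi and 64.3% in siMat2a. The share of all families on that scale was not counted for the contrasts with Low. On that scale the balance of the 57 families turned, to 25 more and 3 less positive for etomoxir. It was 29 and 0 for MYC inhibition and 28 and 0 for Mat2a depletion. Single libraries decided some of these counts, with 4 families for etomoxir without H2O replicate 2, 2 for Mat2a depletion without siCtr replicate 1 or siMat2a replicate 2, 0 to 2 for MYC inhibition without High replicate 1, Low replicate 1, DMSO replicate 1 or either MYCi library, and 1 to 3 for Eed loss without High replicate 2, either Low library or EedKO replicate 1.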

How the data were processed

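Total RNA depleted of ribosomal RNA, with ERCC spike-in RNA, was sequenced as paired reads from 24 libraries in 12 groups of 2. According to the methods of the study and the labels, the authors used Trim Galore with cutadapt for trimming and TopHat2 2.1.1 for alignment to mm10 (GRCm38), removed duplicates with SAMtools 1.9, and ran featureCounts on a joint annotation of genes (Ensembl), long non-coding transcripts (NONCODE) and repeats (HOMER 4.10). Counting ignored strand and split fragments that fitted several places or features into fractions, so near-identical copies share one signal and a locus inside a longer transcript takes its reads. Duplicate removal can flatten abundant short RNAs. The authors deposited FPKM computed with edgeR, 1 column per library in 6 tables. Each table holds 5147736 repeat rows and 55385 Ensembl genes, and 0 columns were of no known sample. The repeat rows carry annotation numbers and no coordinates.

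Families were taken from the row names, with the mean FPKM over all loci. limma 3.58.1 (R 4.3.3) with an intensity trend was fitted to log2(mean FPKM + 0.01) over all repeat families with at least 10 loci and 0.01 FPKM in at least 2 libraries, separately for the 4 libraries of each table, with Benjamini-Hochberg adjustment over all families and a threshold of 0.05. Genes were fitted likewise on log2(FPKM + 0.1) at 0.1 FPKM or more in at least 2 libraries. The pseudocounts understate changes of low values. Scaling to genes divided a library by its median ratio to the geometric mean over tested genes. Differences between contrasts were tested in 1 fit of 24 libraries over 1384 families. An exact permutation test of 2 against 2 cannot go below p = 0.333, so none was used. Python 3.11.15, pandas 2.3.3, numpy 2.4.6 and matplotlib 3.10.9 did the rest, and the fits were tested on simulated data.

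Named families were the landmark small RNAs, the 12 tRNA families of highest level, up to 10 called per direction and comparison by size, and the 2 largest rises and falls. Named genes were up to 3 called per list and comparison and a few fixed ones. The members and lists were chosen with earlier results of these data known. Alternatives were scaling, pseudocounts of 0.1 and 1, no filter, no highest locus, all libraries in 1 fit, an ERCC factor (sorted table only, which holds the spike-in rows), a replicate block and leaving out each library.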

Additional observations from a re-analysis of the deposited data

Results flagged for a closer look

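The values here are differences between 2 contrasts, treated minus control in 1 table less Low minus High in the sorted table, in log2 units ± SE from the limma fit over 24 libraries. Each is listed because that difference itself passed an adjusted p under 0.05 over 1384 repeat families.

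Between etomoxir and Low, families of Y, U and tRNA kinds differed. The Y families HY1 and HY3 were at -1.72 ± 0.45 and -1.46 ± 0.30 (adjusted p = 0.0131 and 0.00456), and relative to genes at -0.90 and -0.63, where HY1 still passed and HY3 did not (adjusted p = 0.0461 and 0.114). U1 was at -1.43 ± 0.32 and U3 at -2.28 ± 0.61, and relative to genes at -0.60 and -1.45, both still called. U2 was at -0.91 ± 0.25, but at -0.07 relative to genes (adjusted p = 0.757). U4 at -0.57 ± 0.16 and U5 at -0.63 ± 0.13 changed sign relative to genes, to 0.26 and 0.20. On the other side stood U7 at 1.68 ± 0.35, tRNA-Gly-GGY at 0.57 ± 0.18 and tRNA-Thr-ACY at 1.49 ± 0.44, which relative to genes were called at 2.41, 1.40 and 2.33.

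Between MYC inhibition and Low, U1 was at -0.94 ± 0.32, tRNA-Trp-TGG at -0.94 ± 0.32 and tRNA-Arg-AGA at 1.71 ± 0.54, while U5 at -0.50 ± 0.13 changed sign to 0.31 relative to genes. On that scale U1 was at -0.13 and tRNA-Trp-TGG at -0.14, neither called (adjusted p = 0.594 and 0.663), and tRNA-Arg-AGA was called at 2.49. Between Mat2a depletion and Low, 6 tRNA families differed, all more positive after depletion. They were tRNA-Thr-ACY_ at 3.22 ± 1.03, tRNA-His-CAY_ at 2.71 ± 0.53, tRNA-Pro-CCA at 2.18 ± 0.73, tRNA-Asn-AAC at 1.63 ± 0.39, tRNA-Gln-CAG at 1.60 ± 0.50 and tRNA-Gly-GGG at 1.03 ± 0.32. All 6 were also called relative to genes, between 1.80 and 3.95. The values of tRNA-Thr-ACY_ and tRNA-Pro-CCA in Low rest on few fragments, and the histidine and asparagine values rest on the numbered run described in the report.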

How the results depend on the processing

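Of 1776 values of named families under an alternative, 1493 kept their side of the threshold and, if called, their direction (111 of these changed sign without a call in either fit), 214 lost the call, 46 gained one and 23 changed direction. Scaled to genes, the direction turned in siMat2a for BC1_Mm (0.63), 4.5SRNA (0.69), tRNA-Ala-GCY (0.54) and tRNA-Ser-TCY (0.74). It turned in ETO for 7SK (0.26), BC1_Mm (0.76), 4.5SRNA (0.63), U5 (0.17), U6 (0.69), tRNA-Asn-AAC (0.54) and tRNA-Val-GTY (0.12), and in MYCi for 7SK (0.38), BC1_Mm (0.76), 4.5SRNA (0.64), U2 (0.23), U4 (0.57), U5 (0.27), U17 (0.082), tRNA-Asn-AAC (0.41) and tRNA-Tyr-TAC (0.27). Without the highest locus it turned for HY1 (0.71) and HY3 (0.64) in siMat2a and for HY3 (0.080) in ETO. The cause was not tested beyond what each alternative changes by its construction.

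Member families called, against 0 in Low, 7 in siMat2a, 13 in ETO, 12 in MYCi and 4 in EedKO, were 34 in siMat2a, 36 in ETO and 42 in MYCi scaled to genes, and 0 in siMat2a and ETO scaled to families (all families 2 higher and 0 lower in siMat2a, and 0 and 0 in ETO). Without a filter on loci and level they were 1 in Low and 1 in siMat2a, without the highest locus 5 in ETO and 1 in EedKO, and in a fit over 24 libraries 2 in Low, 15 in siMat2a and 2 in EedKO. Leaving out 1 library gave 0 to 1 in Low, 0 to 5 in siMat2a, 0 to 37 in ETO and 0 to 0 in MYCi, EedKO and LowSAM50uM. Pathway genes called became 77 in Low and 102 in EedKO scaled to genes, and 5 in Low and 14 in siMat2a without a filter. Leaving out 1 library gave 4 to 17 in Low, 0 to 145 in siMat2a, 19 to 155 in ETO, 137 to 153 in MYCi, 4 to 34 in EedKO and 0 to 0 in LowSAM50uM. Families differing from the Low contrast became 28 for ETO, 29 for MYCi and 28 for siMat2a scaled to genes, 10 for siMat2a scaled to families, 3 for siMat2a with a pseudocount of 0.1, and 1 for EedKO without the highest locus. Leaving out 1 library gave 4 to 12 for ETO, 0 to 4 for MYCi, 2 to 7 for siMat2a and 0 to 3 for EedKO, and 0 to 0 between ETO and MYCi. A lone library left in a group is assumed to vary like the other group. The alternatives for these differences, and the one without the numbered run (6 called in siMat2a and the main count in the other tables), were chosen after seeing the data.

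Groups share the replicate numbers 1 and 2, but no source says that a number marks a shared culture or day. Deviations of same-numbered libraries from their group means correlated over families at -0.09 in the sorted table, 0.07 with Mat2a siRNA, -0.07 with etomoxir, -0.06 with MYC inhibition, 0.17 in the Eed lines and 0.28 with SAM, so the libraries were taken to share only a number. With a replicate block, 0 member families were called in siMat2a, MYCi and EedKO, pathway genes called were 2 in Low, 19 in siMat2a, 68 in EedKO and 144 in LowSAM50uM, and 1 family differed between EedKO and Low. Depth limits the rarest families: 1 fragment on a tRNA length is worth 0.153 to 0.394 FPKM.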

Other observations

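The following values of single loci were picked after they were seen. They belong to no comparison, since they set apart whole tables that were normalized separately. 7SK has 3 loci at a high level, and in 5 of the 6 tables all 3 lay in 1 range, from 624 to 2324 FPKM over 20 libraries. Among the sorted cells, 1 of them was 2382 and 3839.9 in High and 2591 and 2147 in Low, while the other two lay at 169 to 391.

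tRNA-Ser-TCA(m) had a locus that was 633 and 649.7 FPKM in Het and 626 and 766 in EedKO, against 0.319 to 15.4 in the other 20 libraries. The highest tRNA-Arg-AGG locus was 4.12 and 4.20 in Het and 1.81 and 2.77 in EedKO and 0 to 0.152 elsewhere, so the fall of that family in EedKO was read partly at a locus with hardly a value in the E14 cells. Both separate the Eed lines, which were grown on feeders with serum added to 2i/LIF, from the E14 cells on Geltrex. Line, medium and feeders cannot be told apart here.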
